A study of Mus musculus with 6 samples.

Results

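The levels of 29 genes of cholesterol and fatty acid synthesis were compared between Wnt9b knockout and control mesonephroi, taken from male mice at E12.5 (embryonic day). The genes were taken by symbol from a deposited table of 20033 genes. All 29 were present, each with its own row, and all 29 passed a filter on low values (at least 1 TPM, a length-corrected relative abundance, in at least 3 libraries). The mesonephros is the transient embryonic kidney that carries the Wolffian duct, the precursor of the epididymis and vas deferens. Wnt9b encodes a secreted Wnt ligand of the duct. The 3 knockouts lacked Wnt9b in the whole body. The 3 controls are given as wild type in the design text and as heterozygous in the genotype label, so a control may still carry 1 mutant allele. Each library is 1 labelled mouse, neither strain nor litter is stated, and p-values measure the spread between these 6 samples. The bulk tissue holds many cell types, so fewer cells of a type and less RNA per cell cannot be told apart.

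Cholesterol is built from acetyl-CoA in 2 stages. The early enzymes make mevalonate, turn it into isoprenoid units and join these into squalene, and the late enzymes close squalene into lanosterol and trim it to cholesterol. When sterols are scarce in the endoplasmic reticulum, the carrier Scap escorts the SREBP factors (genes Srebf1 and Srebf2) to the Golgi for cleavage, and the freed part switches on most genes of both stages. Insig proteins hold Scap back when sterols are plentiful. SREBP factors also drive fatty acid synthesis. In the embryo, cholesterol serves new membranes, is attached to hedgehog ligands and is the precursor of testosterone.

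No gene of the 29 changed detectably. None passed limma on log2(TPM + 1) at an adjusted p under 0.05, against 0.444% of the 17577 genes tested, and the smallest adjusted p was 0.387. Before adjustment, p was under 0.05 for 2 members (Fdft1 and Insig1), against 11.3% of all tested genes. The differences were small, from -0.23 (Ggps1) to 0.24 (Nsdhl) on the log2 scale. In the direction of higher in the knockouts lay 20 of 29 members (23 with median-of-ratios and 21 with upper-quartile scaling), against 48.2% of all tested genes, with a median log2 difference of 0.098 against -0.0075 over all tested genes. Of the early genes 7 of 8 had a log2 difference above 0, of the late genes 8 of 10, of the regulators 4 of 5 and of the fatty acid genes 0 of 4. In the authors' deposited table none of the 29 has an adjusted p under 0.05, where 3.55% of all genes with such a value do. The same authors' deposited table lists 3 members (Fdft1, Hmgcs1 and Fdps) and 11.8% of all genes below 0.05 before adjustment. A limma-voom fit on whole reads recovered from the TPM values called 0 members and 1.59% of all genes.

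**Figure D1:**
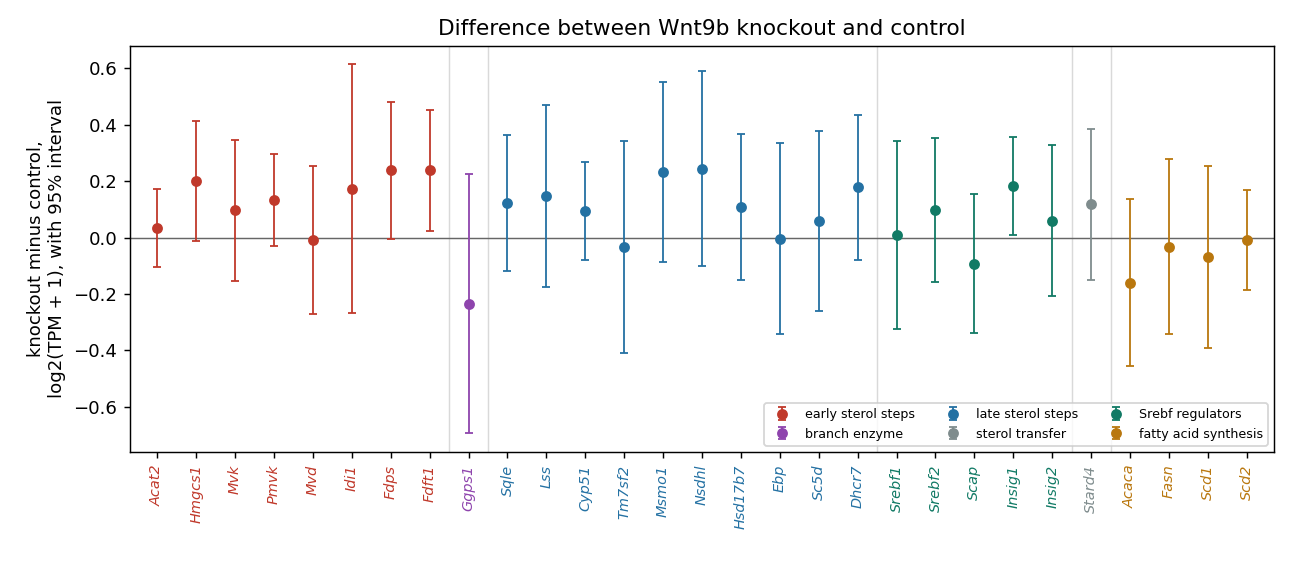
Difference between knockout and control for each of the 29 genes, on the log2(TPM + 1) scale, ordered by pathway step. Points are the limma estimates from 3 against 3 libraries and bars their 95% intervals, not adjusted for the number of genes. Only the intervals of Fdft1 and Insig1 lie wholly above 0, and none lies wholly below it.

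Knockout 3 differed from the other knockouts in 2 measures. It held 27.9 TPM of Alb and 38.1 TPM of Afp, 2 hepatocyte genes that did not exceed 2.34 and 3.63 TPM in the other 5 libraries. Its reads also favoured transcripts of low GC content: when all tested genes were cut into 5 equal bins of GC content, the lowest bin had a median deviation from the gene mean of 0.097 on the log2 scale, against -0.070 and -0.068 in knockouts 1 and 2. In the highest bin the values were -0.079 for knockout 3 and 0.080 and 0.053 for the other knockouts. Controls 1, 2 and 3 were at -0.024, 0.041 and 0.036 in the lowest bin. In the highest bin they were at -0.062, -0.0020 and 0.027. Recovered reads, which are lower bounds, ran from 27930310 to 32401829 per library. Wnt9b itself was at 24.9, 26.4 and 34.0 TPM in the controls against 23.4, 19.2 and 19.0 TPM in the knockouts, or -0.44 ± 0.14 on the log2 scale (SE; limma adjusted p = 0.266). The authors' deposited table calls it lower, at an adjusted p of 0.0263. Which exons the mutant allele lacks is not stated, so this level checks the genotype only in part. Of 9 defining genes of the mesonephros and Wolffian duct, all 9 passed the filter. Of these, Lhx1, a duct and tubule transcription factor, fell (22.0 to 27.4 TPM in controls, 7.42 to 10.3 TPM in knockouts, limma adjusted p = 0.0123). Tcf21, a factor of the mesenchyme, rose (182 to 205 TPM in controls, 268 to 312 TPM in knockouts, limma adjusted p = 0.0197). The duct keratin Krt8 was lower in every knockout (139.8 to 159.6 TPM) than in every control (176 to 182 TPM) without passing (limma adjusted p = 0.194), and the other 6 did not pass.

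Levels are compared between genes on the TPM scale, which is per length. Scd2, a stearoyl-CoA desaturase, was the most abundant member, at 437 to 522 TPM over the 6 libraries and 20864 to 25060 recovered reads. Idi1, the isomerase that makes the reactive isoprenoid unit, was the least abundant, at 4.52 to 6.79 TPM and 140 to 219 reads. The spread within groups had a median SD of 0.14 on the log2 scale over the 29 genes, against 0.13 for the 12769 tested genes whose mean reached 5 TPM. Pmvk was the tightest (SD 0.021) and Ggps1 the loosest (SD 0.33).

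**Figure D2:**
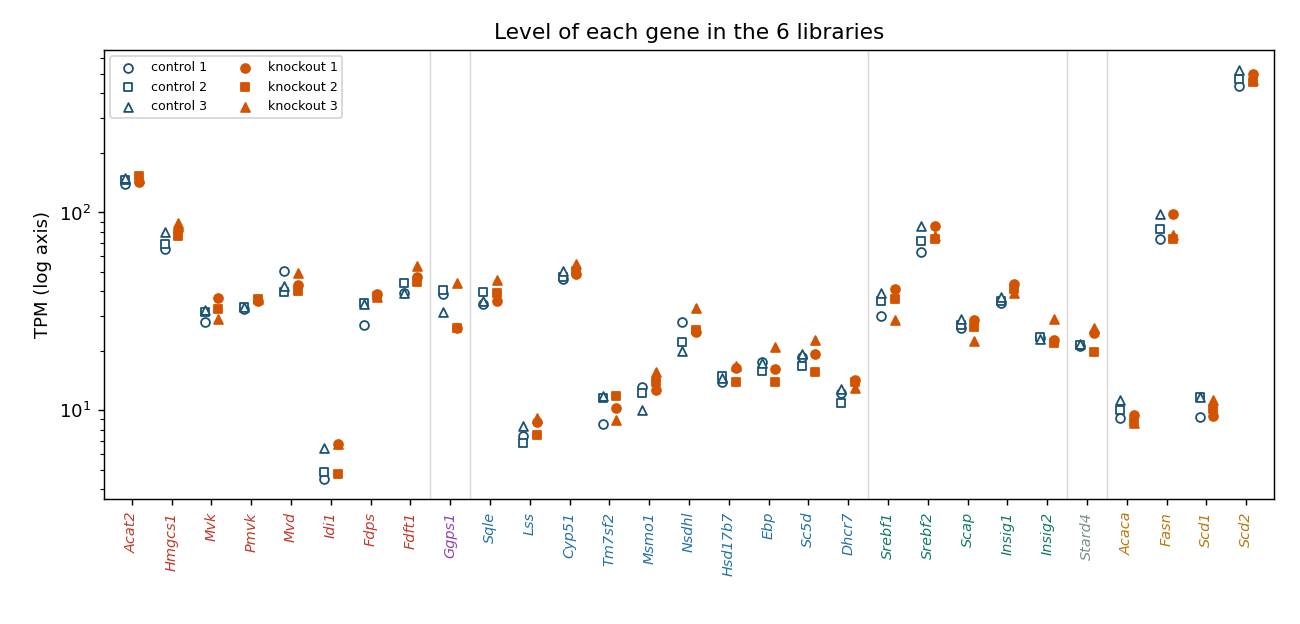
Level of each of the 29 genes in TPM on a log axis, with 3 control libraries as open symbols and 3 knockout libraries as filled symbols. Scd2 lies between 437 and 522 TPM and Idi1 between 4.52 and 6.79 TPM, and the groups overlap for 24 of the 29 genes.

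The promoter windows show what many of these genes share. RefSeq windows from 250 bases before to 50 bases after the annotated start (build GRCm38.p6, not the authors' GRCm39) were at hand for 23 of the 29. CCAAT, the box bound by NF-Y, occurred on either strand in 20 of the 23, against 42.5% of 11328 tested genes with a window and 37.4% of all 32851 windows. GGGCGG, the GC box bound by Sp1, occurred in 19 of 23, against 67.3% of tested genes and 35.7% of windows. Both proteins are known partners of SREBP at sterol genes. The core of the sterol regulatory element, searched as TCACNCCAC on both strands, occurred in Hmgcs1 alone, against 1.43% of tested genes and 1.24% of windows. CACGTG, an E-box that SREBP can also bind, occurred in 5 of 23 (Dhcr7, Hsd17b7, Insig1, Sc5d and Scap), against 11.3% of tested genes and 7.15% of windows. A gene was counted when any of its windows held the motif, so the shares of windows are not on the same basis. These counts are of letters in a window, not of bound sites. The windows of Hmgcs1 (chr13:119690101-119690400, plus strand) and Insig1 (chr5:28071162-28071461, plus strand) are shown since they hold the sterol element core and, in a gene with 1 window whose groups did not overlap, an E-box (Dhcr7 has 3 windows). Capitals mark TCACCCCAC, CACGTG and the CCAAT box, here read as ATTGG on the opposite strand.
Hmgcs1: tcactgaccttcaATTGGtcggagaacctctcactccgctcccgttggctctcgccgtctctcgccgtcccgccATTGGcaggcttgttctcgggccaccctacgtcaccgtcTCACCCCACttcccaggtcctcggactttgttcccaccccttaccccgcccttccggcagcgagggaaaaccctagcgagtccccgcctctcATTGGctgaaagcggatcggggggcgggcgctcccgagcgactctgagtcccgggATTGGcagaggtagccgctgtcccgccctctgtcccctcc
Insig1: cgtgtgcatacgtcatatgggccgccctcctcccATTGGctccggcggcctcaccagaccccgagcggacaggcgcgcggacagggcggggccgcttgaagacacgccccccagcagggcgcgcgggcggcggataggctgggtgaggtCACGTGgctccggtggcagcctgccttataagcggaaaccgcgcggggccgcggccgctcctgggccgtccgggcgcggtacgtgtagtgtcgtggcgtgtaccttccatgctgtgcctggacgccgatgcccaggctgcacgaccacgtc
In Hmgcs1 the sterol element core begins 137 bases before the start, and CCAAT boxes begin 237, 176 and 45 bases before the start, with another after the start. In Insig1 the E-box begins 101 bases and the single CCAAT box 216 bases before the start. None of the marked motifs overlaps another.

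Of the 8 early enzymes, Pmvk, Fdps and Fdft1 had every knockout above every control, yet none passed the test. Fdft1, squalene synthase, which commits isoprenoids to sterols, was at 39.3, 44.1 and 39.0 TPM in the controls against 47.0, 44.6 and 53.6 TPM in the knockouts. Every knockout lay above every control, but control 2 and knockout 2 nearly touched. The log2 difference was 0.24 (95% interval 0.025 to 0.45; limma adjusted p = 0.387). Fdps, farnesyl diphosphate synthase, was at 27.1, 34.8 and 34.4 TPM in the controls against 38.5, 37.7 and 37.3 TPM in the knockouts. The ranges were apart, the knockouts were close together and control 1 was low. Its log2 difference was 0.24 (SE 0.11; limma adjusted p = 0.452). Pmvk, phosphomevalonate kinase, was at 32.5, 33.4 and 33.4 TPM in the controls against 35.8, 36.6 and 36.7 TPM in the knockouts. The 2 sets were tight and apart, 0.13 on the log2 scale (SE 0.071; limma adjusted p = 0.559).

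The groups of the other 5 early genes overlapped. Hmgcs1, which condenses acetoacetyl-CoA and acetyl-CoA, was at 65.1, 69.7 and 79.4 TPM in the controls against 81.5, 76.1 and 88.5 TPM in the knockouts. Only control 3 reached into the knockout range, and the log2 difference was 0.20 (95% interval -0.013 to 0.41; limma adjusted p = 0.478). Idi1 was at 4.52, 4.87 and 6.47 TPM in the controls against 6.79, 4.76 and 6.74 TPM in the knockouts. Its recovered reads were few, and its interval, -0.27 to 0.62, was the widest of the early genes. Mvk, mevalonate kinase, was at 27.97 to 32.3 TPM in the controls against 29.1 to 37.1 TPM in the knockouts. Mvd, the decarboxylase of mevalonate diphosphate, had the same mean to within the spread (44.4 ± 5.75 and 44.1 ± 4.76 TPM; SD, n = 3). Acat2, the cytosolic thiolase at the entry of the pathway, was steady at 144 ± 5.48 and 148 ± 5.14 TPM, with an interval of -0.10 to 0.17.

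Late sterol genes were less abundant, and for 8 of 10 the highest of the 6 values was that of knockout 3, against 22.7% of all tested genes. Nsdhl, which removes carbon at the fourth position of the sterol ring together with Msmo1 and Hsd17b7, was at 27.9, 22.1 and 20.01 TPM in the controls against 25.0, 25.5 and 32.8 TPM in the knockouts. Control 1 lay above knockouts 1 and 2, so the groups overlapped. Its estimate of 0.24 on the log2 scale (SE 0.15; limma adjusted p = 0.608) was 0.12 without knockout 3. Msmo1, the methyl sterol oxidase, was at 13.2, 12.3 and 10 TPM in the controls against 12.6, 13.9 and 15.6 TPM in the knockouts. The difference was 0.23 with all libraries and 0.16 without knockout 3. Hsd17b7, the ketoreductase, was at 13.9 to 15.0 TPM in the controls against 13.9 to 16.9 TPM in the knockouts.

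Sqle, squalene epoxidase and a rate-limiting step, was at 34.7, 39.6 and 35.7 TPM in the controls against 35.7, 39.3 and 45.4 TPM in the knockouts. Knockouts 1 and 2 fell within the control range. The log2 difference of 0.12 (limma adjusted p = 0.726) was 0.032 without knockout 3. Lss, which closes the rings, was at 6.88 to 8.38 TPM in the controls against 7.50 to 9.14 TPM in the knockouts. Cyp51, the demethylase that acts on lanosterol, was at 46.4 to 50.6 TPM in the controls against 48.9 to 54.8 TPM in the knockouts, with an interval of -0.079 to 0.27.

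Dhcr7, which catalyses the last reduction to cholesterol, was the one late gene whose groups did not overlap. It was at 12.3, 10.9 and 12.8 TPM in the controls against 14.2, 13.9 and 13.0 TPM in the knockouts. Control 3 and knockout 3 lay close, and the estimate of 0.18 on the log2 scale (SE 0.11; limma adjusted p = 0.620) was 0.21 without knockout 3. Ebp, the sterol isomerase, averaged 16.9 ± 0.957 TPM in the controls against 17.0 ± 3.51 TPM in the knockouts (SD, n = 3). Sc5d, the desaturase that follows it, was at 18.6, 16.8 and 19.3 TPM in the controls against 19.3, 15.7 and 22.6 TPM in the knockouts. In both genes knockout 2 was the lowest and knockout 3 the highest library. Tm7sf2, a sterol reductase, was at 8.50, 11.6 and 11.9 TPM in the controls against 10.3, 11.8 and 8.97 TPM in the knockouts. Knockout 3 was the lowest knockout for this gene, as it was for Dhcr7.

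Early and late steps gave similar differences. The median log2 difference was 0.15 over the 8 early genes and 0.12 over the 10 late genes, and 3 early and 1 late gene had all knockouts above all controls. With the regulator Insig1 that made 5 of 29 members, against 8.14% of all tested genes in that direction, and 0 members had all knockouts below all controls, against 8.49% of all tested genes. The summed level of the early genes was 386, 404 and 417 TPM in the controls against 432, 425 and 449.9 TPM in the knockouts. That of the late genes was 200.2, 198 and 201 TPM in the controls against 208, 206 and 240.2 TPM in the knockouts. Both sums were higher in every knockout than in every control, although Acat2 and Hmgcs1 outweighed the other early genes together in each library. The ratio of early to late was 1.93, 2.04 and 2.08 in controls and 2.08, 2.06 and 1.87 in knockouts, and these ranges overlapped. Without knockout 3 the early median was 0.13 and the late median 0.058. The knockouts then lay above all controls for 6 members (Mvk joined) and below for 2 (Ggps1 and Insig2), against 15.9% and 19.7% of all tested genes.

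Ggps1, which makes geranylgeranyl diphosphate for protein prenylation and so leads away from sterols, had the largest difference in the other direction. It was at 38.6, 40.5 and 31.5 TPM in the controls against 26.0, 26.0 and 44.0 TPM in the knockouts. Knockouts 1 and 2 lay below all controls and knockout 3 above them all. With all 6 libraries the log2 difference was -0.23 (95% interval -0.69 to 0.23; limma adjusted p = 0.726). Without knockout 3 it was -0.48 (limma adjusted p = 0.109), and limma-voom on the recovered reads then gave -0.47 with an adjusted p of 0.0436, the lowest over the 15 alternatives, which reached 0.947. Ggps1 has the lowest GC content of the 29 (40.1% of its longest annotated transcript). In the lowest of 5 GC bins the median deviations of knockouts 1, 2 and 3 over all genes were -0.070, -0.068 and 0.097. Those of Ggps1 itself were larger, at -0.36, -0.36 and 0.37. The cause of the split was not tested. With the GC and length trends of the libraries removed the difference over all 6 was -0.18 (limma adjusted p = 0.724).

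Among the regulators, Insig1, itself a classical SREBP target that feeds back on Scap, was at 34.9, 35.9 and 37.6 TPM in the controls against 43.3, 40.9 and 39.3 TPM in the knockouts. The ranges were apart, and the log2 difference of 0.18 (95% interval 0.0087 to 0.36; limma adjusted p = 0.421) was 0.22 without knockout 3. Its paralogue Insig2 was flat in controls at 23.2, 23.6 and 23.1 TPM and at 22.6, 21.9 and 28.98 TPM in knockouts. Knockouts 1 and 2 lay just below the controls and knockout 3 above them. Over the 5 regulators the median log2 difference was 0.060, and -0.0016 without control 1. The ratio of Insig1 to Insig2 was 1.504, 1.52 and 1.63 in controls and 1.91, 1.87 and 1.36 in knockouts.

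Srebf2, the main activator of sterol genes, was at 63.4, 72.0 and 85.1 TPM in the controls against 84.9, 73.7 and 76.4 TPM in the knockouts. Srebf1, the activator tied more to fatty acids, was at 30.1, 35.6 and 39.4 TPM in the controls against 41.0, 36.5 and 28.8 TPM in the knockouts. The groups overlapped in both: limma gave 0.098 (SE 0.11) for Srebf2 and 0.0095 (SE 0.15) for Srebf1, at adjusted p of 0.804 and 0.988. Scap was at 26.1 to 28.95 TPM in the controls against 22.4 to 28.5 TPM in the knockouts (log2 difference -0.092, adjusted p = 0.808 by limma). Stard4, a cytosolic sterol carrier and SREBP target, was tight in controls at 21.1, 21.5 and 21.8 TPM and spread in knockouts at 24.7, 19.7 and 26.1 TPM. Knockout 2 alone lay below the controls.

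Fatty acid synthesis genes had no difference above 0 (with median-of-ratios scaling Scd2 was at 0.0017): the median was -0.051, from -0.16 for Acaca to -0.0072 for Scd2. Without control 3 that median was 0.022. Acaca, acetyl-CoA carboxylase and the committed step, was at 9.13, 10.05 and 11.2 TPM in the controls against 9.51, 8.76 and 8.59 TPM in the knockouts. Control 1 lay inside the knockout range, and the interval ran from -0.45 to 0.14 (limma adjusted p = 0.708). Fasn, fatty acid synthase, was at 73.2, 82.3 and 98.7 TPM in the controls against 97.8, 73.7 and 77.2 TPM in the knockouts. Its spread within each group (SD 12.9 and 13.0 TPM) exceeded the difference of the means. Scd2 averaged 477 ± 42.8 TPM in the controls against 474 ± 22.4 TPM in the knockouts (SD, n = 3), which limits a change to between -0.18 and 0.17 on the log2 scale. Scd1, the desaturase of adult liver and fat, was at 9.22 to 11.7 TPM in the controls against 9.33 to 11.3 TPM in the knockouts. Scd2 stood 40.4 to 53.4 times above Scd1 in every library; reads that the 2 similar transcripts share may have been split by the counting, which is not described in the sources used here.

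Single libraries held many of the highest and lowest values. Of the 29, 14 were highest in knockout 3 (22.7% of all tested genes were) and 14 were lowest in control 1 (20.8% of all tested genes were). The 4 fatty acid genes were all highest in control 3. That library was also high for long transcripts. In the longest of 5 equal length bins of all tested genes (from 4864 bases), its median deviation was 0.10. In knockout 2 it was -0.10. The longest transcripts of Fasn, Acaca, Scd2 and Scd1 have 10050, 9513, 5455 and 4832 bases, so Scd1 lies outside that bin. Of the other members in the bin, Srebf2 (5077 bases) was also highest in control 3. Lss (6992 bases) and Stard4 (5097 bases) were highest in knockout 3. A part of length was not tested. Across the members, knockout 3 minus the mean of the other 2 knockouts was higher for transcripts of low GC content, with a Pearson r of -0.67 over 29 genes and -0.27 over 17154 tested genes. These points share the same 3 libraries. Of 17 members under 50% GC, 14 were higher in knockout 3 (median 0.20), as were 4 of the other 12 (median -0.076); over all tested genes those medians were 0.12 and -0.055. With the GC and length trends removed, the median over the 29 was 0.091, the early median 0.13, the late median 0.16 and the fatty acid median -0.0040. No member was called then (smallest limma adjusted p = 0.222).

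**Figure D3:**
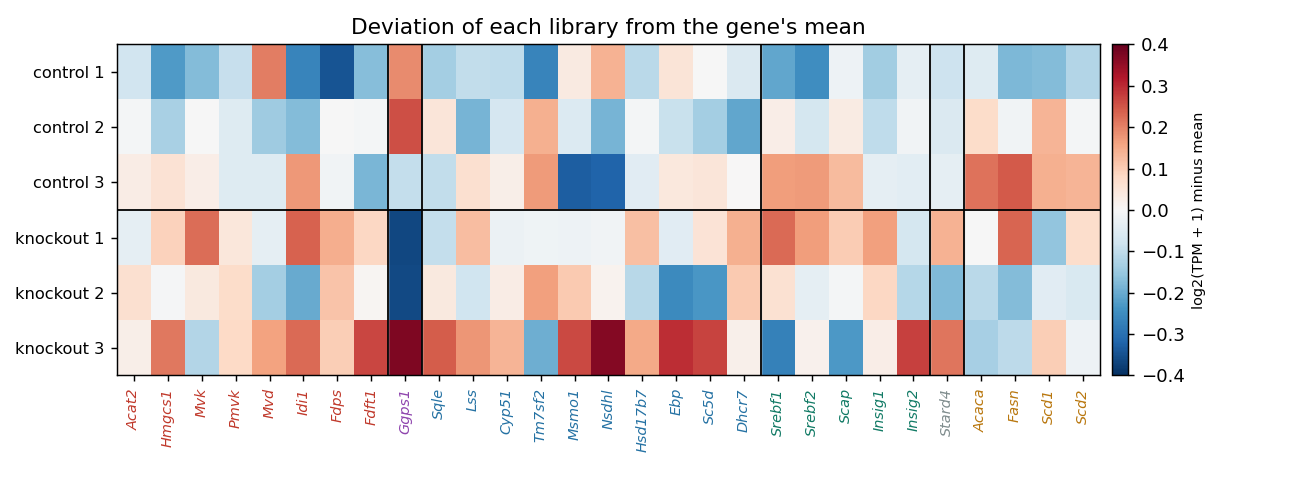
Deviation of each library from the mean of its gene, on the log2(TPM + 1) scale, for the 29 genes in pathway order, with 3 controls above and 3 knockouts below the line. Knockout 3 is the reddest row over the late sterol genes, where it holds 8 of 10 highest values, and control 3 over the 4 fatty acid genes.

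**Figure D4:**
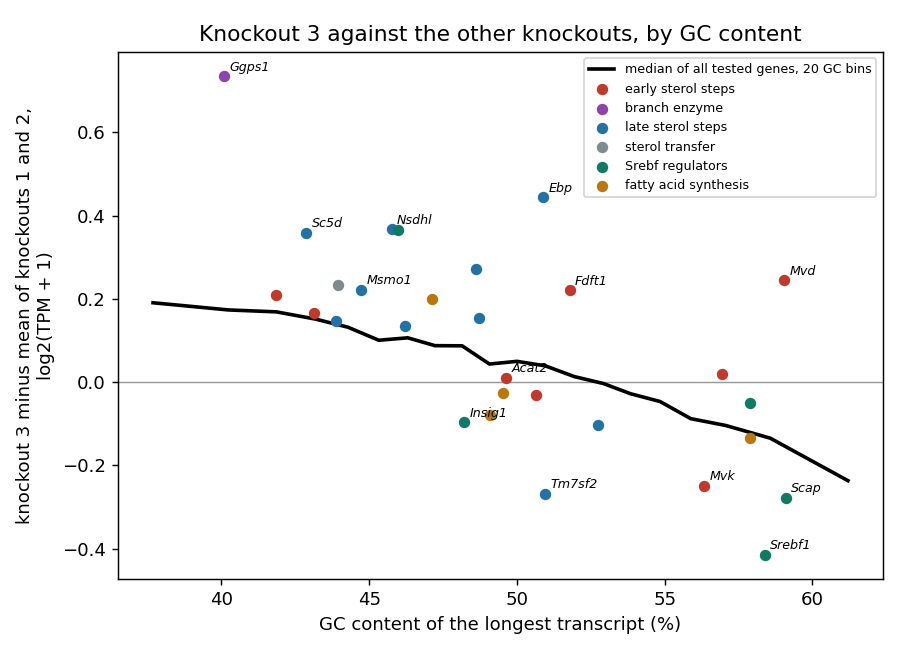
Knockout 3 minus the mean of knockouts 1 and 2, on the log2(TPM + 1) scale, against the GC content in percent of the longest transcript, with 1 point per gene. The line is the median of all tested genes in 20 GC bins. It falls with GC content, Ggps1 lies highest at 40.1% GC, and Srebf1 and Scap, at 58.4% and 59.1% GC, lie lowest.

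No gene around the pathway passed the limma test either. The 6 lists held 68 tested genes (other SREBP targets and sterol uptake, SREBP processing, sterol efflux, chain elongation and desaturation, isoprenoid use, fatty acid breakdown). Of these, 0 passed limma over all genes, against 0.444% of all tested genes. Before adjustment 5 were below 0.05, against 11.3% of all tested genes. Limma-voom called 1, against 1.59% of all genes, and the authors' deposited table calls 2, against 3.55% of all genes with an adjusted p. The gene called by both, singled out after its values were seen, was Me1, malic enzyme, a source of NADPH for lipid synthesis. It was at 9.59, 6.29 and 6.80 TPM in the controls against 19.8, 17.1 and 13.7 TPM in the knockouts, with no overlap. The log2 difference was 1.07 (SE 0.19; limma adjusted p = 0.0647; limma-voom adjusted p = 0.0113), with 1.007e-06 for the adjusted p in the authors' deposited table. The other was Acaa2, a mitochondrial thiolase of fatty acid breakdown, at 172 ± 10.9 TPM in the controls against 212 ± 20.9 TPM in the knockouts (SD, n = 3). It differed by 0.30 on the log2 scale (limma adjusted p = 0.221), and its adjusted p in the authors' deposited table is 0.0455.

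By list, 0 higher and 0 lower genes passed among 15 other SREBP targets, where Acly, which supplies cytosolic acetyl-CoA, and Acat1 had log2 differences of -0.021 and 0.046. The same counts held for 6 genes of SREBP processing, with 0.0022 for the sterol-binding protein gene Pgrmc1 and -0.21 for Mbtps1, the site-1 protease that cleaves SREBP; Mbtps1 was lower in every knockout (94.1, 86.7 and 95.1 TPM) than in every control (97.0, 106 and 116.8 TPM), at a limma adjusted p of 0.396. Neither did any of 11 efflux genes pass, the median being -0.10 and that of Npc2, a lysosomal sterol carrier, -0.10. Of 17 elongation and desaturation genes none passed, with 0.088 for the enoyl reductase gene Tecr and 0.037 for the desaturase gene Fads2. Of 10 isoprenoid genes none passed, with -0.059 for Rabggtb and 0.013 for Fnta, both subunits of prenyl transferases. Of 9 breakdown genes none passed, and Acadl differed by 0.011.

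Markers of other cells moved between the same libraries. The summed level of 8 genes of the gonadal soma was 72.7 to 100.4 TPM in the controls against 141 to 231 TPM in the knockouts, and 3 of them (Nr5a1, Gata4 and Kctd14) rose in the test over all genes. The authors' deposited table calls these and Cbln4 (adjusted p = 0.0142). Of the 8 genes, 6 had a log2 difference above 0, while Sox9 (-0.059) and Fgf9 (-0.040) lay below 0. Amh, which is part of the sums, was at 67.8, 44.65 and 9.58 TPM in the knockouts. Its controls were at 10.46, 5.87 and 4.33 TPM, so the groups overlapped. Steroidogenic cells, which draw heavily on cholesterol, were represented by 5 listed genes in the table, summing to 18.9 to 22.4 TPM in the controls against 30.2 to 34.9 TPM in the knockouts. Of 3 tested, Star, Mc2r and Hsd3b1, all were higher in every knockout but none was called by limma, 2 being below 0.05 before adjustment. Cyp17a1, an androgen synthesis enzyme below the filter, was at 0.0742, 0.0437 and 0 TPM in the controls against 2.75, 1.68 and 0.129 TPM in the knockouts, and the authors' deposited table calls it higher (adjusted p = 0.000734). Hsd3b1 was at 0.776, 1.18 and 0 TPM in the controls against 7.62, 4.11 and 1.80 TPM in the knockouts, all from at most 65 recovered reads. Knockout 3 was the lowest knockout for Hsd3b1 and Cyp17a1 and the highest library for Star (8.42 TPM) and Mc2r (19.2 TPM). Of 5 proliferation genes none passed limma, though the authors' deposited table calls Top2a higher (adjusted p = 0.0441), with summed levels of 721 to 792 TPM in the controls against 772 to 889 TPM in the knockouts. The 5 hepatocyte and fat cell genes in the table summed to 8.50 to 13.5 TPM in controls. The sums were 8.89 in knockout 1, 8.34 in knockout 2 and 81.1 TPM in knockout 3. Neural and glial genes (6 listed) summed to 14.6 to 17.6 TPM in controls, and to 62.6, 30.9 and 15.4 TPM in knockouts 1, 2 and 3. None passed limma, while the authors' deposited table calls Th (adjusted p = 0.00097) and Sox10 (adjusted p = 0.0496) higher. The 4 germ cell genes summed to 27.2, 4.27 and 4.795 TPM in controls and, in knockouts, to 36.6, 21.3 and 8.42 TPM. Erythroid genes summed to 12540 to 16626 TPM in controls and, in knockouts, to 15573 to 17343 TPM. Macrophage genes summed to 44.6 to 59.2 TPM in controls and, in knockouts, to 39.6 to 54.3 TPM. None of the germ cell, erythroid or macrophage genes passed limma. The part of these cells in the small differences of the sterol genes was not tested. The median log2 difference over the 29 was 0.098 with all libraries. With 1 library left out it ran from 0.057 (without knockout 3) to 0.13 (without knockout 2). Knockout 3 also differed in GC trend, so its omission does not isolate hepatocytes.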

How the data were processed

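RNA-seq of 6 libraries (3 control, 3 knockout mesonephroi) was analysed from 1 table. TPM per library, and a log2 fold change with its p-value and adjusted p-value, were made by the authors and deposited in it, per the file headers. Build GRCm39 and DESeq2 are named in the submitters' processing notes; the aligner, counter and strand setting are not given. Every per-sample column matched a label (0 left over). Genes with at least 1 TPM in at least 3 libraries were tested with limma 3.58.1 (R 4.3.3) on the log2 of TPM plus a pseudocount of 1. The model held genotype alone and a mean-variance trend, with Benjamini-Hochberg adjustment over 17577 genes at 0.05. The test was checked on simulated data whose changes were larger than any difference of the members, so the check does not cover differences of that size. Whole reads were recovered from the TPM steps (within 0.02 reads for 20030 of 20033 genes) and used for limma-voom. Recovered reads share an unknown common divisor per gene, so they are lower bounds. GC content and length came from the longest GENCODE M21 transcript, matched by gene identifier. Libraries of a group differed by more than sampling noise (chi-square per degree of freedom at least 7.34).

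The 29 members and all lists were chosen with earlier results of these data known. All members are named; from each other pathway list, genes past the test, or with none the 2 of highest mean TPM, are named, and 1 gene that this rule picks is not reported here. Alternatives were another pseudocount, no filter, 2 other scalings, no trend, a replicate block and omission of each library. After seeing the data, limma-voom, removal of the GC and length trends (medians of 20 bins each) and limma-voom without knockout 3 were added.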

Additional observations from a re-analysis of the deposited data

How the results depend on the processing

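Over 15 alternative settings no member was called in 14, and Ggps1 was the 1 member called by limma-voom on recovered reads without knockout replicate 3. Of the 29 members, 19 kept the sign of their difference in every setting and 10 did not, all with small differences. Genes called over the whole table numbered 78; the count was 28 without the mean-variance trend, 279 with limma-voom, 119 with the GC and length trends removed, 942 with limma-voom without knockout 3, and 13 (without control 2) to 243 (without knockout 3) when 1 library was left out. With the replicate block it was 17, and no member was called. Same-numbered libraries did not deviate together (correlations -0.064, 0.050 and -0.051). The largest correlation was 0.11, for control 3 with knockout 1. With 3 libraries per group and no litter stated, these values cannot settle whether the numbers pair the samples. The causes were not tested.

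Signs changed with median-of-ratios scaling for Mvd (0.00075), Ebp (0.0052) and Scd2 (0.0017), and with upper-quartile scaling for Ebp (0.00045). With limma-voom they changed for Mvd (0.0021), Ebp (0.011) and Scd2 (0.012). With the GC and length trends removed they changed for Srebf1 (-0.0053), Fasn (0.0059) and Scd2 (0.038). With limma-voom without knockout 3 they changed for Tm7sf2 (0.097), Sc5d (-0.032), Scap (0.031), Insig2 (-0.036), Fasn (0.045) and Scd2 (0.031). Leaving out 1 library gave log2 differences of -0.090 to 0.092 for Mvd, -0.17 to 0.057 for Tm7sf2, -0.15 to 0.12 for Ebp, -0.061 to 0.19 for Sc5d, -0.10 to 0.15 for Srebf1, -0.0016 to 0.21 for Srebf2, -0.17 to 7.5e-05 for Scap, -0.061 to 0.13 for Insig2, -0.16 to 0.083 for Fasn and -0.068 to 0.060 for Scd2. Idi1 had the fewest recovered reads of the members, at 140 to 219, and recovered reads are lower bounds.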
